A study of Mus musculus with 10 samples.

Results

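The genes described here are 9 members of the Hippo and YAP pathway in mouse liver: the coactivators Yap1 and Wwtr1 (TAZ), their DNA-binding partner Tead1, the inhibitors Lats2 and Amotl2, and the described targets Ankrd1, Ctgf, Cyr61 and Axl. They were chosen by symbol, as rows of the deposited table whose gene symbol, split where a model carries several, is one of these names. This gave 9 of 59408 gene models. RNA sequencing was carried out on whole livers of 10 C57BL/6 wild-type mice, all collected at day 35. The 4 control mice were untreated. The 3 mice of the primary biliary cholangitis model (PBC) received 100 µg of 2-octynoic acid coupled to bovine serum albumin in the peritoneum on days 0, 14 and 28, first in complete and then in incomplete Freund's adjuvant, with 2 µg of α-galactosylceramide into a vein at the first 2 injections. The 3 mice of the primary sclerosing cholangitis model (PSC) were fed 0.089% 3,5-diethoxycarbonyl-1,4-dihydrocollidine (DDC) in the diet, which causes injury of the bile ducts, for 2 weeks, then regular food for 1 week and DDC again for 1 week. No control received adjuvant, carrier protein or glycolipid, so in the PBC model the effects of antigen, adjuvant and glycolipid cannot be told apart.

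In the Hippo pathway, the MST kinases activate the LATS kinases, which phosphorylate YAP and TAZ and so keep them out of the nucleus. When the kinases are inactive, YAP and TAZ enter the nucleus and, bound to TEAD factors, switch on genes of growth, matrix and adhesion, among them Ankrd1, Ctgf and Cyr61 and also the inhibitors Lats2 and Amotl2. In liver the pathway is known for setting organ size and for separating hepatocyte from bile duct identity, and YAP is more active in bile duct cells than in hepatocytes. Its activity is set mainly by phosphorylation and location of the YAP and TAZ proteins, which RNA sequencing does not measure.

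TEAD factors bind the letters GGAATG, or CATTCC when read on the other strand, and these letters were searched for in RefSeq promoter windows of the GRCm38.p6 build, each 300 bases long with 250 bases before the transcription start and 50 after it. RefSeq windows matched 7 of the 9 members by symbol (Cyr61 as Ccn1), and not Tead1 or Ctgf. All 7 held the TEAD letters in at least 1 window, against 14.7% of all 32851 windows and 16.6% of the 27025 genes with a window. Below are the 250 bases before the start of the 4 members whose motif lies upstream and which are targets or a target that feeds back on YAP, on the strand of the gene with the TEAD letters in capitals. They are chr19:36119845-36120094 (minus strand) for Ankrd1, chr7:25788734-25788983 (minus) for Axl, chr3:145649986-145650235 (minus) for Cyr61 and chr9:102717554-102717803 (plus) for Amotl2.
Ankrd1: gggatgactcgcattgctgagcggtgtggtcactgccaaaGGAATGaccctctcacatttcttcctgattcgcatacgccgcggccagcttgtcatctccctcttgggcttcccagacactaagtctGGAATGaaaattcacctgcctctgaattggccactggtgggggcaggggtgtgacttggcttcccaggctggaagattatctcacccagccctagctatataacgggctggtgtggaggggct
Axl: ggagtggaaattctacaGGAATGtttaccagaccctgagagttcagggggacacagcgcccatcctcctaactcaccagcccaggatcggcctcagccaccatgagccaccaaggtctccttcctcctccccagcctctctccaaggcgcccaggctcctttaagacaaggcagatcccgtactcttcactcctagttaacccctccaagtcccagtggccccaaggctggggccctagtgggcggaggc
Cyr61: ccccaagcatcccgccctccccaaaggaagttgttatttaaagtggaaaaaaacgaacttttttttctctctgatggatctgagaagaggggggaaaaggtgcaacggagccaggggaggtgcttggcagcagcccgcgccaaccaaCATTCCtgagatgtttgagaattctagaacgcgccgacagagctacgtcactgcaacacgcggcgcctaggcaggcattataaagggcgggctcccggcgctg
Amotl2: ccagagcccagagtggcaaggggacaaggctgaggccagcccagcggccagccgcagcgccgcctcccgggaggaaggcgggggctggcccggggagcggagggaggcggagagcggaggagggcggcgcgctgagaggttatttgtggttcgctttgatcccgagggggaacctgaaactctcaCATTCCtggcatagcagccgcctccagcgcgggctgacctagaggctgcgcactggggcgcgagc
The letters begin 210 and 123 bases before the start in Ankrd1, 233 before it in Axl, 103 in Cyr61 and 65 in Amotl2. In the windows of Yap1 and Wwtr1, which are not printed, they also lie upstream, and in that of Lats2 they begin 4 bases after the start. The AP-1 letters TGANTCA, read on both strands and present in 7.81% of all windows, were in no window of these 7 genes, and nor was the CArG box bound by serum response factor (1.63% of all windows). A match of this kind describes the sequence and is not a measured binding site.

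The values are normalised read counts on the scale deposited by the authors, on which 1 read was worth 0.938 to 2.55 units. Libraries held 38.3 to 95.4 M reads on genes. Nothing in the labels describes the mice of a group as other than separate animals, and p-values measure the spread between these mice. All 9 members passed the filter on low values (at least 10 in at least 3 livers), together with 18390 gene models in all. The model that carries Lats2 also carries Xpo4, a nuclear export receptor, and reads of both genes cannot be separated, so each value given for Lats2 covers both. Tead1 had 2 to 39 reads a library and Ankrd1 4 to 113, and their values are correspondingly coarse. Because whole tissue was sequenced, fewer cells of a type and less RNA per cell cannot be told apart.

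One library has to be named before the results. Liver PBC 8 had the highest value of the 3 PBC livers in all 9 members and in 45 of the 75 other pathway genes tested (60%), against 39% of all genes tested, and PBC 7 had the lowest value in all 9 members, against 30.6% of all genes. The normalised total of PBC 8 was 81.4 M, against 110.1 M in PBC 7 and 105 M in PBC 9. The part of this library in the PBC results was not tested beyond giving the values without it.

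Per kilobase of exon (GENCODE vM21), Axl stood highest of the 9 in controls at 549.5 ± 127 normalised reads (SD, n = 4), followed by Cyr61 at 255 ± 133. The ranges, 444 to 703 for Axl and 119.6 to 432 for Cyr61, did not overlap. Wwtr1 at 89.5 ± 18.3, the Lats2 model at 80.7 ± 17.5, Yap1 at 80.2 ± 13.2 and Amotl2 at 75.9 ± 35.4 formed a middle group in which neighbours differed by less than their spread. Ctgf lay below them at 40.9 ± 8.97 and overlapped Amotl2 only, Ankrd1 followed at 13.0 ± 3.36, and Tead1 was lowest at 2.02 ± 1.14.

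**Figure D1:**
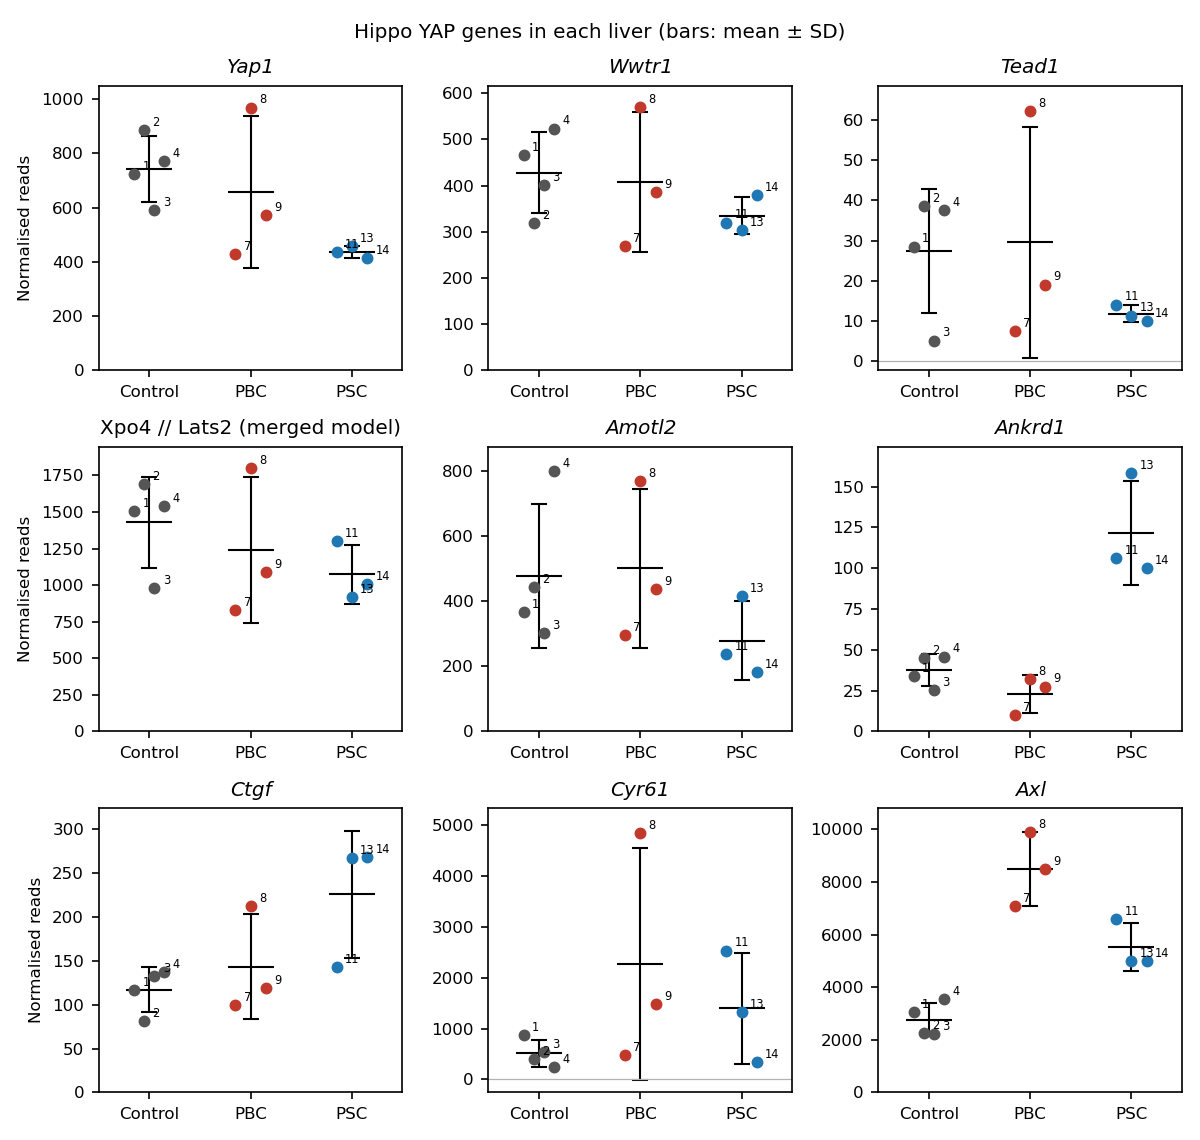
Normalised read counts of the 9 pathway genes in each of the 10 livers, with points for livers and bars for group means. Axl is higher in all 6 livers of both models than in every control, Ankrd1 is higher in the 3 PSC livers alone, and Cyr61 spreads from 242 to 4842.

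Neither coactivator passed the limma test in any comparison, and both varied most among the PBC livers. Yap1, the coactivator restrained by Hippo kinases, had 723, 884, 590.1 and 772 normalised reads in controls 1 to 4, 430.2, 969 and 573 in PBC 7, 8 and 9, and 437, 459 and 414 in PSC 11, 13 and 14. Each PSC liver lay below every control, while the PBC livers reached from below to above the controls. In limma the PSC livers were at a log2 difference of -0.75 (SE 0.261, 95% interval -1.31 to -0.187, n = 3 against 4), with an adjusted p of 0.07. This difference was past the threshold in DESeq2 (adjusted p = 0.0322), with only the compared groups in limma (0.0212) and with quality weights (0.00285), and also without PBC 8 (0.0186) and without PBC 7 (0.05 after rounding), livers that are not in the comparison but share its estimate of spread. In PBC the difference was -0.24 (SE 0.261, adjusted p = 0.595 in limma), and it was -0.56 without PBC 8 and 0.02 without PBC 7.

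Wwtr1, which encodes TAZ, had 466, 319.6, 401 and 523 normalised reads in the controls, 269, 570.4 and 385 in PBC and 319.8, 304 and 379.6 in PSC. All 3 groups overlapped. Its log2 differences were -0.11 in PBC (SE 0.273, interval -0.698 to 0.476) and -0.34 in PSC, with adjusted p of 0.833 and 0.441 in limma. The intervals therefore leave room for a change of either sign in PBC.

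Tead1, a TEAD factor that carries YAP and TAZ to DNA, was read too thinly for a firm statement. It had 28.5, 38.5, 5.11 and 37.5 normalised reads in controls, 7.46, 62.1 and 19.0 in PBC and 14.1, 11.3 and 9.86 in PSC. Control 3 and PBC 7, the livers with 2 and 3 reads of this gene, were the lowest, and the groups overlapped. The PSC difference was -0.86 with an interval of -2.51 to 0.801 (limma adjusted p = 0.49), so a change of either sign was not detectable at this depth. The PBC difference was -0.05 (interval -1.71 to 1.6) and did not pass the limma test, and it was 0.64 without PBC 7, -0.81 without PBC 8, -0.69 without control 3 and -0.91 with quality weights.

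The inhibitors did not pass the test in any comparison in limma. Amotl2, an angiomotin that holds YAP in the cytoplasm and is itself a YAP target, had 365, 443, 301 and 799.7 normalised reads in controls, 296, 769.5 and 436 in PBC and 237, 416 and 182 in PSC. Control 4 and PBC 8 were the high livers, and each model overlapped the controls. Its log2 differences were 0.06 in PBC and -0.76 in PSC (SE 0.395 for both, adjusted p 0.943 and 0.217 in limma). The Lats2 model, which joins the LATS2 kinase to Xpo4, had 1504, 1689, 978 and 1542 in controls, 831, 1799 and 1092 in PBC and 1302, 917 and 1006 in PSC. PBC 8 was again the highest of all livers and PBC 7 the lowest, with both models overlapping the controls. Its PSC difference was -0.40 (interval -0.985 to 0.193, limma adjusted p = 0.358), and it passed the test only with quality weights (-0.56, adjusted p = 0.0195).

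**Figure D2:**
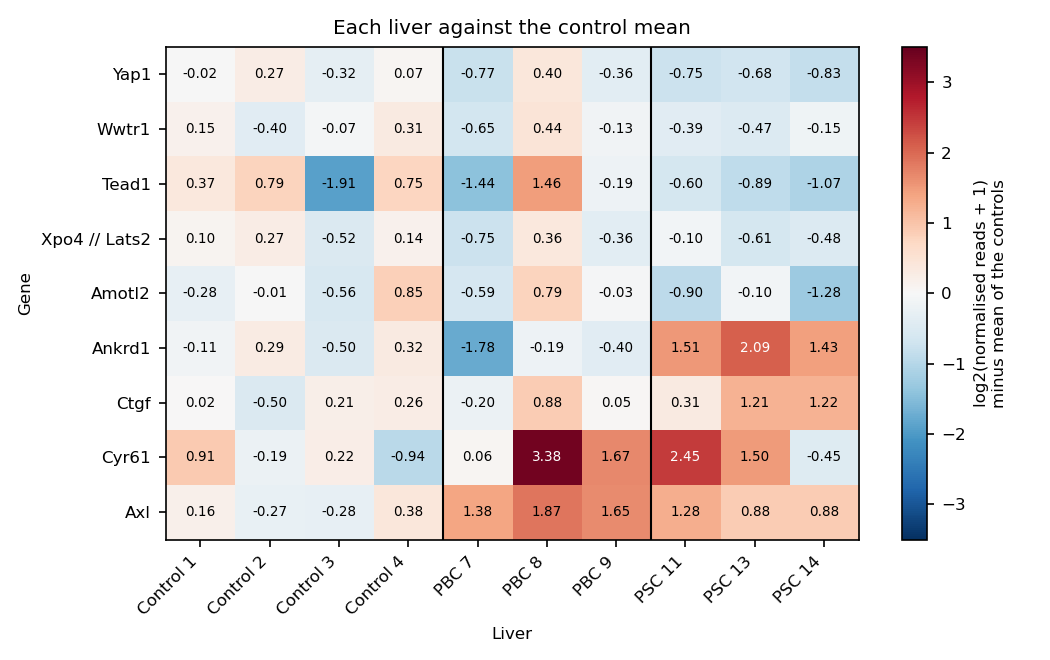
Log2 difference of each member in each liver from the control mean. The PBC 8 column holds the highest value of its group in all 9 rows, while the 3 PSC livers are below the control mean for Yap1 and above it for Ankrd1 and Axl.

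The clearest differences were those of Axl, a receptor tyrosine kinase of the TAM family that binds Gas6 and serves the uptake of dying cells. Its normalised reads were 3040.2, 2251, 2233 and 3539 in controls, 7069.9, 9900.5 and 8500.0 in PBC and 6591, 4998 and 4993 in PSC. Every liver of either model lay above every control, and every PBC liver lay above every PSC liver. Axl rose 3.1-fold in PBC (log2 1.63, SE 0.213, limma adjusted p = 0.000515) and 2.02-fold in PSC (log2 1.01, SE 0.213, limma adjusted p = 0.00796). Both calls were kept in each of the 20 alternatives run. The direct difference between PBC and PSC was 0.62 (interval 0.127 to 1.11) and did not pass (limma adjusted p = 0.175).

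Ankrd1, a nuclear ankyrin repeat protein widely used as a readout of YAP, had 33.7, 44.9, 25.6 and 45.8 normalised reads in controls, 9.95, 31.9 and 27.5 in PBC and 106, 159 and 100.2 in PSC. The 3 PSC livers lay above all the others, and PBC and control overlapped. Ankrd1 rose 3.2-fold in PSC (log2 1.68, SE 0.443, limma adjusted p = 0.0241) and was lower in PBC than in PSC by a log2 difference of -2.47 (SE 0.474, limma adjusted p = 0.0164). Against control, PBC was at -0.79 (interval -1.74 to 0.167, limma adjusted p = 0.279). The PSC call was lost with any PSC liver left out: without PSC 13 its adjusted p was 0.108, without PSC 14 0.075, without PSC 11 0.0676 and without control 1 0.06, with differences between 1.47 and 1.80. It was also just missed with no filter (0.0522) and with equal library totals (0.0506). The call between PBC and PSC was lost without PSC 13 (0.101), PSC 14 (0.0693) or PSC 11 (0.0544).

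Ctgf (Ccn2), a secreted matricellular protein of fibrosis, had 117, 80.9, 133 and 137 normalised reads in controls, 99.5, 212 and 118 in PBC and 143, 267 and 268 in PSC. The PSC livers were all above the controls, PSC 11 by little, and PBC 8 alone stood above the controls in its group. The PSC difference was 0.92 (SE 0.344, interval 0.174 to 1.66) with an adjusted p of 0.0905 in limma. It was past the threshold in DESeq2 (0.0426), with quality weights (0.00384) and without PBC 8 (0.0484). The PBC difference was 0.24 (limma adjusted p = 0.698) and turned to -0.08 without PBC 8.

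Cyr61 (Ccn1), a secreted relative of Ctgf that is induced within minutes as an immediate early gene, varied widely within each group. Its normalised reads were 873, 406, 542 and 242 in controls, 485, 4842 and 1481 in PBC and 2533, 1317 and 339 in PSC. PBC 8 and PSC 11 were the highest livers, and PBC 7 and PSC 14 lay inside the control range. The highest value was 3.61 times the lowest in controls, 9.98 times in PBC and 7.48 times in PSC. The log2 differences were 1.71 in PBC (SE 0.733, interval 0.127 to 3.28, limma adjusted p = 0.156) and 1.16 in PSC (interval -0.413 to 2.74, limma adjusted p = 0.309). Without PBC 8 the PBC value was 0.87, without PBC 7 it was 2.53, and the PSC value was 0.52 without PSC 11 and 1.97 without PSC 14. With quality weights the values were 0.55 in PBC and 0.54 in PSC.

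**Figure D3:**
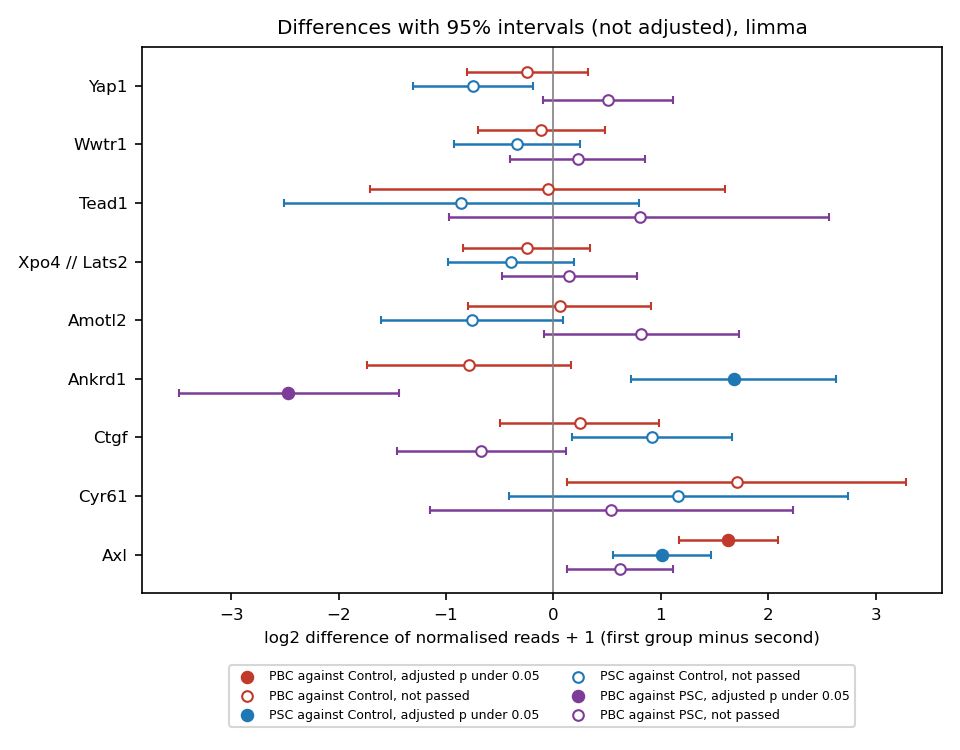
Log2 difference with its 95% interval for each member in the 3 comparisons, on the log2(value + 1) scale. Only the intervals of Axl in both models against control and of Ankrd1 in the comparisons with PSC belong to adjusted p under 0.05, and the intervals of Cyr61 and Tead1 are the widest.

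Counted together, 1 of the 9 members was higher in PBC than in control, against 7.6% of all genes tested, and 0 were lower (limma, adjusted p under 0.05), against 2.34% of all. At an unadjusted p under 0.05 the counts were 2 higher and 0 lower, and edgeR and DESeq2 each gave 1 higher and 0 lower. In either direction that is 1 of 9, against 9.94% of all genes. The groups did not overlap for 1 member, Axl, against 19.6% of all genes in either direction. It was higher in PBC, against 12.7% of all genes not overlapping in that direction. For 0 of the 9 members were the PBC values below all controls, against 6.89% of all genes. The median log2 difference of the members was -0.05, beside 0.01 over all genes tested.

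In PSC against control 2 members rose, Axl and Ankrd1, against 8.25% of all genes, and 0 fell, against 6.48%. In either direction 14.7% of all genes were called. At an unadjusted p under 0.05 there were 3 higher and 1 lower, with the same counts in DESeq2 at adjusted p under 0.05 and 2 and 0 in edgeR. Values did not overlap for 4 members, against 31.5% of all genes: 3 higher members (Axl, Ankrd1 and Ctgf; 15.9% of all genes) and 1 lower member (Yap1; 15.6% of all genes). The median over the members was -0.34, beside 0.06 over all genes.

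Between the models 1 member, Ankrd1, was lower in PBC than in PSC, against 1.13% of all genes, and 0 were higher, against 1.11% (limma). In either direction 2.24% of all genes were called. At an unadjusted p under 0.05 there was 1 in each direction, while edgeR and DESeq2 each called 0 higher and 1 lower. Axl (higher in PBC; 14.6% of all genes) and Ankrd1 (lower; 12.6% of all genes) were the 2 members whose values did not overlap, against 27.2% of all genes in either direction. The median was 0.51, beside 0.02 over all genes. The comparisons share livers, so their values are given side by side and not as separate support.

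Other genes of the pathway were read in 7 lists chosen by role, with 78 genes besides the members, of which 75 were tested (Ptpn14 with 0 to 10 reads a library and Vgll3 with 0 to 4 did not pass the filter on low values, and Foxf2 had 0 reads in every library). In PBC 8 of the 75 rose, beside 7.6% of all genes, and 1 fell, beside 2.34%, so both counts are near those of all genes. The median difference was 0.25, beside 0.01 over all genes. In PSC 16 rose, beside 8.25% of all genes, and 8 fell, beside 6.48%, with a median of 0.10, beside 0.06 over all genes. Between PBC and PSC 3 were lower in PBC, beside 1.13% of all genes, and 0 were higher in limma, beside 1.11% (8 at an unadjusted p under 0.05, 0 in edgeR and 5 in DESeq2). Members and lists were chosen with earlier results of these data known, so their counts beside all genes are a description.

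Of 19 genes of the kinase cassette and its activators, 0 rose and 4 fell in PSC in limma (2 and 7 at an unadjusted p under 0.05, 0 and 4 in edgeR, 0 and 6 in DESeq2). The limma shares of all genes were 8.25% higher and 6.48% lower. In 8 of the 19 the PSC livers lay below all controls without overlap, beside 15.6% of all genes. The list's median in PSC was -0.37, beside 0.06 over all genes. Lats1, the sister kinase of Lats2 that phosphorylates YAP, had 748 ± 59.4 normalised reads in control, 480.4 ± 258 in PBC and 224 ± 26.2 in PSC (SD, n = 4, 3 and 3). All 3 PSC livers, at 216, 254 and 204, lay below the lowest control at 672. Lats1 fell by 1.73 on the log2 scale in PSC (SE 0.305, limma adjusted p = 0.00282), and this was kept in all 20 alternatives. In the same comparison Mob1a, a LATS cofactor, fell by 1.51 (adjusted p = 0.0259), Taok1, a kinase upstream of MST, by 1.61 (0.0304), and Nf2, the tumour suppressor merlin that recruits LATS to the membrane, by 0.95 (0.0195; all limma). These were less stable: Nf2 was lost without control 1, PSC 13 or PSC 14 and with equal totals (adjusted p 0.0547 to 0.084), Mob1a and Taok1 with equal totals and without control 1, 2 or 4, PSC 13 or PSC 14, and Mob1a also without PSC 11 (adjusted p 0.052 to 0.0889 for Mob1a and 0.0526 to 0.156 for Taok1). In PBC 1 gene of the list rose, beside 7.6% of all genes, and 1 fell, beside 2.34%. These were Dchs1, an atypical cadherin (0.85, limma adjusted p = 0.0461), and Mob1b, a LATS cofactor (-1.05, limma adjusted p = 0.0439), named after their values were seen. Both calls were lost in edgeR, with no filter, with equal totals and with only the compared groups, and that of Dchs1 also with TMM scaling. They were also lost in most fits that left out a liver, those without control 1, 2 or 3, PBC 7, PBC 9 or any PSC liver, and for Mob1b also control 4 (adjusted p 0.0538 to 0.174 over all the lost calls of both).

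The next list joins genes that bind YAP or serve its breakdown with LIM proteins that inhibit LATS, so its members differ in their effect on YAP. Among its 10 tested genes 2, both LIM proteins, rose and 1 fell in PSC. In PBC 0 passed in limma in either direction (1 and 0 at an unadjusted p under 0.05, 0 in edgeR and DESeq2). Shares of all genes were 8.25% higher and 6.48% lower in PSC, and 9.94% in either direction in PBC. Amotl1, the relative of Amotl2, had 102 ± 18.3 normalised reads in control, 78.1 ± 83.1 in PBC and 23.4 ± 12.8 in PSC and fell by 2.19 in PSC (limma adjusted p = 0.0251), a call lost without control 2, control 4, PSC 11 or PSC 13 (adjusted p 0.0537 to 0.107). Ajuba and Wtip, LIM proteins that inhibit LATS, rose in PSC by 1.14 (limma adjusted p = 0.0379) and 0.97 (0.0395). Ajuba was lost without control 1, 3 or 4 or any PSC liver (0.0543 to 0.157), and Wtip with no filter, with equal totals and without control 1, 2 or 4 or any PSC liver (0.0604 to 0.163). Ctnna1, the α-catenin of cell junctions, was at 0.75 in PBC (limma adjusted p = 0.0674).

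Tead2 was the TEAD factor that differed. Its normalised reads were 190.4, 158, 199 and 140.2 in controls, 147, 172 and 216 in PBC and 366, 451 and 376 in PSC. The PSC livers lay above all others, and PBC and control overlapped. Tead2 rose in PSC by 1.21 (SE 0.241, limma adjusted p = 0.00587), kept in all 20 alternatives, and was lower in PBC than in PSC (-1.17, SE 0.258, limma adjusted p = 0.0332). That second call was lost without control 1, PBC 7, PBC 8 or any PSC liver (adjusted p 0.0533 to 0.17). In PBC 0 of the 4 tested TEAD factors and cofactors passed in limma, edgeR or DESeq2 (1 at an unadjusted p under 0.05). The limma share of all genes there was 9.94%. Tead3 was at 0.66 in PBC (limma adjusted p = 0.179), Tead4 at 0.70 in PSC (0.584) with 1 to 14 reads a library, and Vgll4, a cofactor that competes with YAP for TEAD, at -0.87 in PSC (0.0755).

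In a list of 14 tested genes from a YAP and TAZ target signature, 2 rose in PBC and 2 rose and 1 fell in PSC, with medians of 0.33 and 0.05. All genes gave 7.6% higher in PBC and 8.25% higher and 6.48% lower in PSC, with medians of 0.01 and 0.06. Ccdc80, a secreted matrix protein, had 361, 302, 304 and 314 normalised reads in controls, 945, 707 and 675 in PBC and 1682, 1972 and 1936 in PSC. The 3 groups did not overlap, with PBC in the middle. It rose by 1.26 in PBC (limma adjusted p = 0.00141) and by 2.54 in PSC (4.5e-06), and PBC lay below PSC by a log2 difference of -1.28 (0.00654; 0.0526 without PSC 14). Myof, a membrane repair protein, had 57.7 ± 17.7 in control, 227 ± 6.87 in PBC and 374 ± 31.5 in PSC and rose by 2.01 (limma adjusted p = 0.00078) and 2.72 (5.9e-05). Nt5e, the ectonucleotidase CD73, went the other way, falling from 2213 ± 880.0 in control to 629 ± 97.8 in PSC, a log2 difference of -1.73 (limma adjusted p = 0.0121; 0.0689 without PSC 14), and it was at -1.29 in PBC (0.0564). Fjx1, a secreted regulator, was at 1.71 in PSC (0.0777).

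Of 10 other described YAP targets, 7 rose and 1 fell in PSC and 2 rose in PBC, with medians of 1.90 and 0.88. All genes gave 8.25% higher and 6.48% lower in PSC and 7.6% higher in PBC, with medians of 0.06 and 0.01. Sox9, a transcription factor of bile duct cells, had 160.0 ± 23.8 normalised reads in control, 422 ± 44.4 in PBC and 1052 ± 566 in PSC and rose by 1.41 (limma adjusted p = 0.00966) and 2.60 (0.000132). Thbs1, the matrix protein thrombospondin, rose by 2.61 (0.00146) and 2.89 (0.000624). Birc5, a mitotic protein, rose in PSC by 2.34 (0.0067), and Areg, an EGF receptor ligand, by 3.30 (0.0199; lost without any of the PSC livers, 0.0551 to 0.0997). Also past the threshold, and named after their values were seen, were Hbegf (1.47, limma adjusted p = 0.0246) and Edn1 (1.00, 0.0271), which were higher in PSC, and Inhba (-1.88, 0.0208), which was lower. Edn1 was lost with equal totals and without control 1 or any PSC liver (0.0582 to 0.105), Hbegf with equal totals and without control 2, control 4, PSC 11 or PSC 13 (0.0525 to 0.116), and Inhba without control 1, PSC 13 or PSC 14 (0.0561 to 0.0853).

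Among 10 relatives of the members (other CCN proteins, ankyrin repeat proteins and TAM receptors with their ligands), 2 rose in PBC, and 2 rose and 1 fell in PSC. Across all genes 7.6% rose in PBC, and 8.25% rose and 6.48% fell in PSC. Wisp2 (Ccn5), a CCN protein like Ctgf and Cyr61, had 18.1, 12.8, 33.2 and 25.0 normalised reads in controls, 102, 66.9 and 80.4 in PBC and 367, 466 and 369.8 in PSC. The 3 groups did not overlap. It rose by 1.91 in PBC (SE 0.352, limma adjusted p = 0.00449) and by 4.18 in PSC (SE 0.352, 9.71e-06), and PBC lay below PSC (-2.27, 0.00696; 0.0554 without PSC 13). Gas6, the ligand of Axl, had 10016 ± 4093 in control, 25382 ± 7419 in PBC and 19016 ± 2356 in PSC and rose by 1.38 (limma adjusted p = 0.00761; 0.0526 without PBC 9) and 1.00 (0.0304; lost without control 1, control 2 or any PSC liver, 0.0597 to 0.113). Pros1, the other TAM ligand, was at 0.68 in PBC (0.0701). Wisp3 (Ccn6) had 9, 32, 15 and 6 reads in the controls, 16, 3 and 4 in PBC and 1, 0 and 0 in PSC. Wisp3 passed the filter on low values only through controls 1, 2 and 3 (11.66, 41.08 and 38.32 normalised reads) and PBC 7 (39.79). Its call as lower in PSC (limma adjusted p = 0.00834) is therefore a description. On the pooled reads controls were 53.4 times higher per depth, with an exact 95% interval of 9.23 to 2.14e+03 that covers counting error only.

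Among 8 genes regulated by serum response factor and actin, 1 rose in PBC and 2 in PSC, beside 7.6% and 8.25% of all genes. Flna, an actin crosslinker, had 2303 ± 251 normalised reads in control, 4894 ± 503 in PBC and 5056 ± 353 in PSC and rose by 1.09 (limma adjusted p = 0.00139) and 1.14 (0.000898), in all 20 alternatives of each. Tagln, a smooth muscle actin-binding protein, rose by 1.48 in PSC (0.0269), a call lost without control 2, control 4 or any PSC liver (0.0555 to 0.136). Mkl2, a coactivator of serum response factor, was at -1.33 in PSC (0.077), and Myl9, a myosin light chain, at 0.62 in PSC (0.163).

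**Figure D4:**
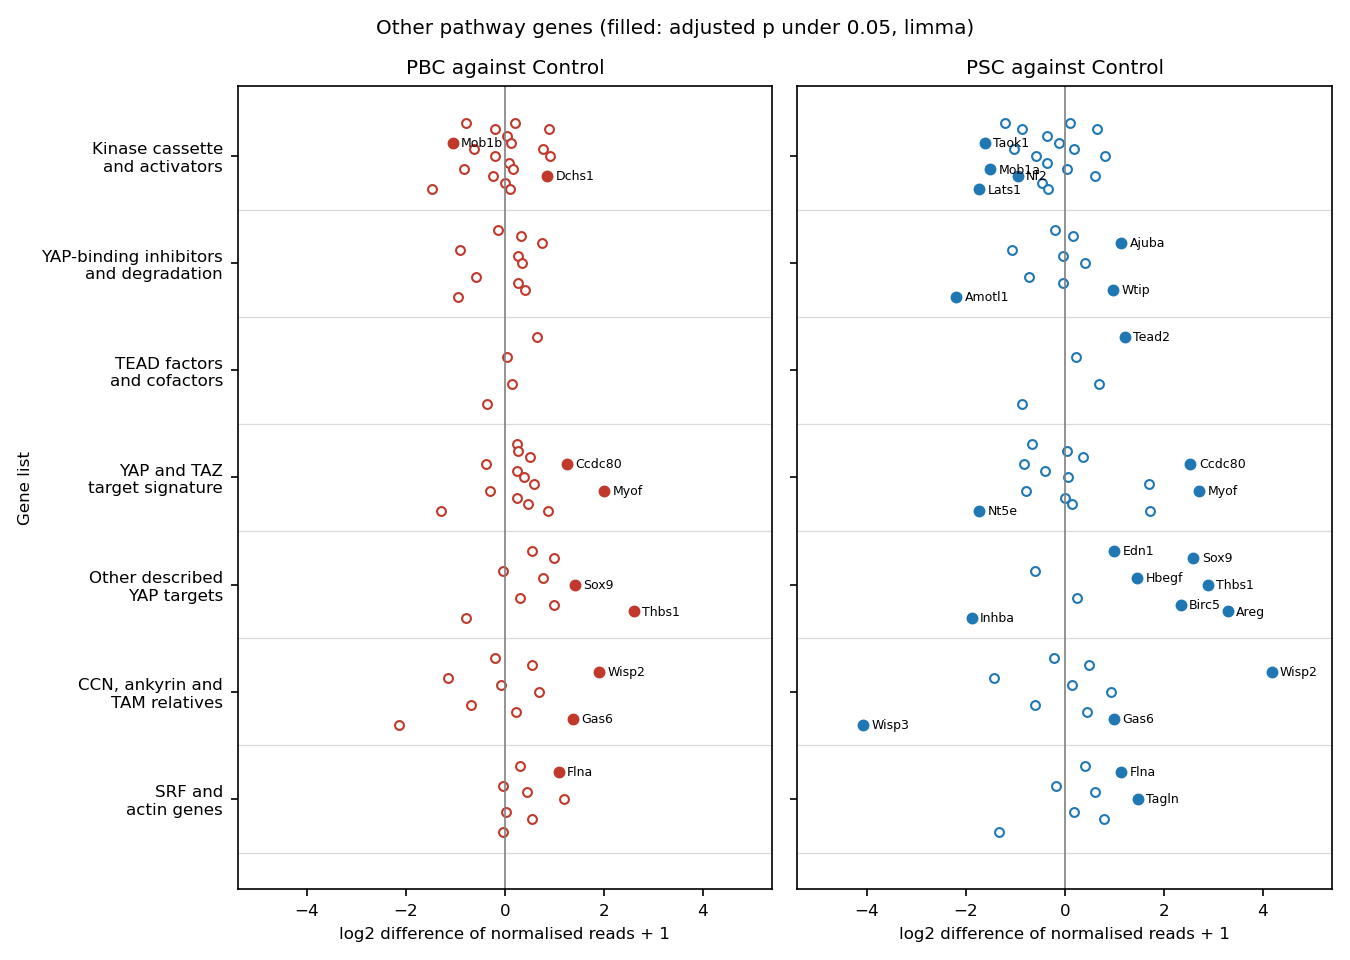
Log2 differences against control of the pathway genes other than the members (1 gene not drawn), grouped by list, for PBC and PSC. Points spread widest in PSC, with Lats1, Mob1a, Taok1 and Nf2 below zero in the kinase list and Wisp2 at 4.18 and Areg at 3.30 among the highest values.

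Markers of several cell types moved with these genes. The shares of all genes called in limma, to be read beside each count below, were 7.6% higher and 2.34% lower in PBC. In PSC they were 8.25% higher and 6.48% lower. Of 8 macrophage markers 7 rose in PBC and 4 in PSC, as Axl did, and their summed normalised reads ran from 38262 to 65906 in control, 137200.0 to 195691 in PBC and 98336 to 124554 in PSC. Of 8 bile duct markers 3 rose in PBC in limma (1 in edgeR and 3 in DESeq2), where Ankrd1 and Tead2 did not pass. In PSC 6 rose in each of the 3 tools, and Ankrd1 and Tead2 rose there. The bile duct sums were 1095 to 1322, 1863 to 1904 and 3841 to 4027 in control, PBC and PSC. Of 8 stellate cell and fibroblast markers 2 rose in PBC and 4 in PSC, while Wisp2 and Ccdc80 rose in both models. The sums of these markers were 13733 to 21896 in control, 14097 to 27514 in PBC, which overlapped control, and 32381 to 36539 in PSC. Dcn, with means of 1.27e+04 in control and 1.22e+04 in PBC, was the largest part of these sums. By single markers 3 of the 8 lay above all controls in PBC and 0 below, beside 12.7% and 6.89% of all genes. Alb and Clec4g were likewise the largest part of the hepatocyte and endothelial sums below. Hepatocyte markers gave 1 of 6 higher in PBC in limma (1 in edgeR and 2 in DESeq2) and 1 of 6 lower in PSC (Hnf4a). In PSC edgeR called 2 lower and DESeq2 3, and 2 were lower at an unadjusted p under 0.05. For 3 of the 6 the PSC livers lay below all controls, beside 15.6% of all genes. The sums were 8054422 to 9343465, 8287993 to 12221933 and 5358080.0 to 6449615, so hepatocyte transcripts were abundant in every liver, as the tissue label states. Endothelial markers gave 1 of 6 lower in PSC (Kdr) and 0 of 6 in PBC in limma, edgeR or DESeq2 (1 at an unadjusted p under 0.05), with sums of 8352 to 13250.0, 5894 to 12502 and 6009 to 9428. Mesothelial markers gave 0 of 5 in both in limma and edgeR (1 lower in PSC in DESeq2 and at an unadjusted p under 0.05), with sums of 276 to 833, 355 to 1262 and 236 to 686. No marker was at 0 in every library, though the bile duct channel Cftr was at 0 in some. Sox9 is in both the bile duct and the YAP target list. The part of these cell types in the results was not tested.

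The genes whose values followed Axl and Ankrd1 most closely over the 10 livers were sought among 11520 tested genes with a mean of at least 50, by the root mean square difference in log2(value + 1) after each gene's control mean was subtracted. This is a description of these livers. For Axl the nearest were C1qc (0.124), a complement subunit made by macrophages, Cmklr1 (0.148), a chemerin receptor, and Pld4 (0.155), a nuclease of phagocytes. C1qc had 8489 ± 1503 normalised reads in control, 26923 ± 2951 in PBC and 18296 ± 3394 in PSC, differences of 1.68 and 1.11, close to the 1.63 and 1.01 of Axl. For Ankrd1 the nearest were Cldn6 (0.365), a claudin of tight junctions, Epcam (0.402), an epithelial adhesion protein that is among the bile duct markers above, and Rwdd2a (0.497). Epcam was at -0.67 in PBC, but 5 of the 8 bile duct markers were above 0 there. Sox9 (1.41), Krt19 (1.13) and Muc1 (1.12) were called higher in PBC in limma, unlike Ankrd1. In edgeR only 1 of the 8 was called higher there. Cldn6 had 72.2 ± 25.5 in control, 41.5 ± 6.02 in PBC and 278 ± 51.9 in PSC, a difference of 1.99 in PSC. Rwdd2a had 28.7 ± 2.71 in control, 21.6 ± 6.89 in PBC and 110 ± 33.1 in PSC. It therefore reached the mean of at least 50 only through the PSC livers. Since these genes were chosen for following Axl or Ankrd1 in the same livers, their differences from control are a description and were not tested. The distances for Ankrd1 were larger than those for Axl, at a gene with far fewer reads.

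**Figure D5:**
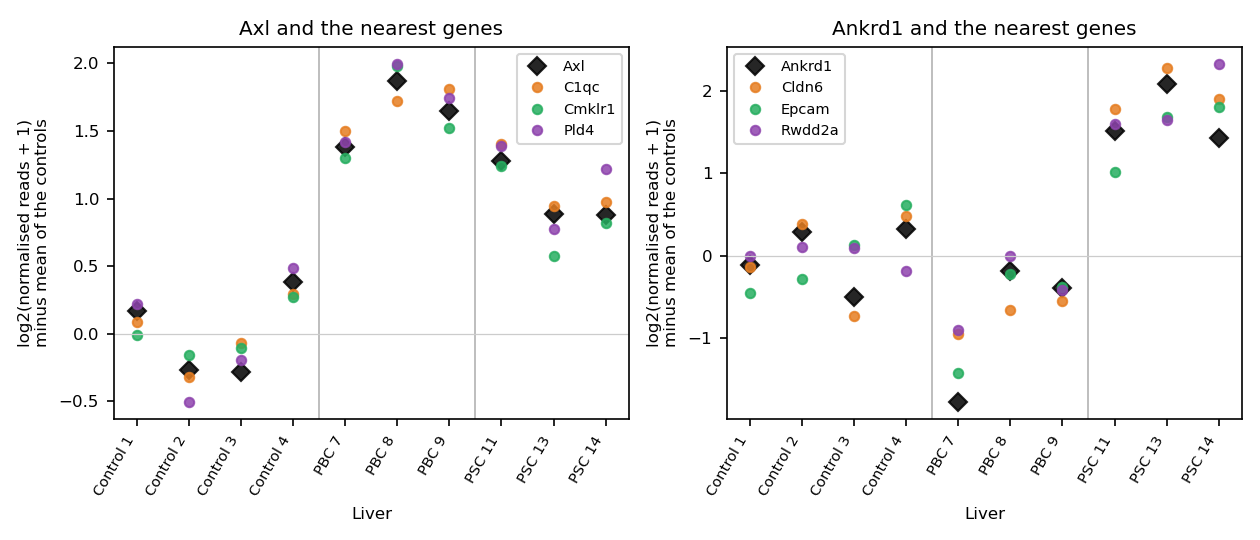
Log2 difference from the control mean in each of the 10 livers for Axl and Ankrd1 and for the 3 genes nearest to each. The dots for C1qc, Cmklr1 and Pld4 lie close to those of Axl in all 3 groups, and those for Cldn6 and Epcam lie near Ankrd1, below zero in the PBC group on average and above it in PSC.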

How the data were processed

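RNA from 10 mouse livers was made into strand-specific poly(A) libraries and read as pairs of 75 bases, per the labels' protocols. Per the submitters' processing notes the genome build was mm10, and the tools named are STAR 2.4.0, Picard, SAMtools, DESeq2 and FastQC. Which counter was run, and whether by strand, is not given in the sources used here; thus overlapping genes cannot be told apart. The deposited signal is reads per gene model after normalisation by the authors, per the file headers. Values within a library were whole multiples of 1 step (tolerance 0.1, 100% of values), so reads were recovered by division. Depth was 38.3 to 95.4 M reads, and the highest was 2.49 times the lowest.

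The test was limma 3.58.1 in R 4.3.3 with an intensity trend on log2(value + 1), 1 fit over 10 libraries, for genes of at least 10 in at least 3 libraries, with Benjamini-Hochberg adjustment over all 18390 and a threshold of 0.05. It was tested on simulated data. Fold changes are on this scale and understate the change of low genes. On the recovered reads, edgeR 4.0.16 and DESeq2 1.42.0 were alternatives. Others were pseudocounts of 0.5 and 5, no filter, a filter of 50, TMM scaling, totals made equal, a fit of the compared groups alone, quality weights and leaving out each liver in turn. The members and lists were chosen with earlier results of these data known. Named pathway genes are up to 4 a list with the smallest adjusted p in any comparison, and the 3 genes nearest to each called member. In the lists, 1 gene is counted but its values are not reported here. RefSeq gave promoters and GENCODE vM21 exon lengths.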

Additional observations from a re-analysis of the deposited data

Results flagged for a closer look

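In 4 pathway genes the changes in the 2 models differed from each other by the direct comparison of PBC with PSC in limma. PBC lay below PSC in log2 value by -2.47 for Ankrd1 (adjusted p = 0.0164), -1.17 for Tead2 (0.0332), -1.28 for Ccdc80 (0.00654) and -2.27 for Wisp2 (0.00696). For Ankrd1 and Tead2 the PBC livers overlapped the controls, while for Ccdc80 and Wisp2 they lay between control and PSC. The values of the bile duct and the stellate cell and fibroblast markers, which moved in the same comparison, are given above, and their part was not tested. By Dixon's criterion on the normalised reads, no control liver stood apart from the other 3 in the 37 genes examined, and groups of 3 were not examined. This is not claimed for the log2 scale of the tests. There Tead1 in control 3, with 2 reads, was at -1.905 from the control mean. Controls 1, 2 and 4 were at 0.3665, 0.7881 and 0.7503. The 37 do not cover all pathway genes, and in some others 1 control lay far from the rest. Wisp1 had 6.94 normalised reads in control 4, against 35.0, 33.4 and 33.2 in controls 1 to 3. Scrib had 1371 in control 2, against 707, 605 and 618 in controls 1, 3 and 4.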

How the results depend on the processing

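No paired analysis was possible because the groups share no replicate numbers. Of 537 alternative values for the members, 499 kept direction and side of the threshold, 9 lost a call, 9 gained one and 20 changed sign. Other pathway genes were followed in this way only for the 36 results already called, so no gained call could be counted. Of their 719 values, 616 kept both and 103 lost a call. A filter of 50 left Tead1 untested. Equal totals shifted the median of all genes in PBC against control by -0.12. The cause of the changes below was not tested.

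Sign changed in PBC against control for Tead1 in edgeR (0.0925) and DESeq2 (0.0485) and for Amotl2 with equal totals (-0.0681) and quality weights (-0.0609). With a liver left out, PBC against control ran from -0.56 to 0.0209 for Yap1, -0.39 to 0.16 for Wwtr1, -0.81 to 0.64 for Tead1, -0.0768 to 0.47 for Ctgf, -0.31 to 0.38 for Amotl2 and -0.56 to 0.0022 for Lats2. PBC against PSC ran from -0.05 to 0.49 for Wwtr1, -0.30 to 1.36 for Cyr61 and -0.16 to 0.40 for Lats2.

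In PBC against control the 8 other pathway genes higher became 14 with quality weights. The 1 lower became 0 in edgeR, with only the compared groups, with equal totals or with no filter, 2 in DESeq2, 8 with quality weights and 0 to 10 with a liver left out. Of all genes, 1398 higher became 853 with equal totals, 752 with only the compared groups, 2425 with quality weights and 684 to 1818 with a liver left out, and 430 lower became 913 in DESeq2, 89, 1803 and 65 to 1574 in the last 3.

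In PSC against control the 2 members higher became 1 with no filter or equal totals and 1 to 3 with a liver left out. The 0 lower became 1 in DESeq2 or with only the compared groups, 2 with quality weights and 0 to 1 with a liver left out. Other pathway genes were 8 to 17 higher with a liver left out, and 5 lower with equal totals, 14 with only the compared groups, 22 with quality weights and 3 to 14 with a liver left out. All genes were 3899 higher with quality weights and 711 to 1915 with a liver left out, and 1192 lower became 669 with equal totals, 1929 in DESeq2, 1853 with only the compared groups, 3404 with quality weights and 251 to 1899.

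Between PBC and PSC the 1 member lower became 0 to 1 with a liver left out. Other pathway genes were 5 higher in DESeq2, 1 with only the compared groups, 3 with quality weights and 0 to 2 with a liver left out, and 6 lower in DESeq2 and 1 to 4. All genes were 128 higher with equal totals, 590 in DESeq2, 658 with quality weights and 59 to 261 with a liver left out, and 623 lower in DESeq2, 701 with quality weights and 42 to 301.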
